A study of Mus musculus with 96 samples.

Results

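The ipsilateral (IP) hemisphere of *diabetic* mice was compared between mice that had a stroke and mice that had a sham operation. The members were the 12 of 96 arrays that the labels gave as *diabetic* and IP, 8 from mice with middle cerebral artery occlusion (MCAO) and 4 from sham-control mice. The study measured mRNA in both hemispheres of mice that differed in sex, age or diabetic state, so as to describe the first hours after an ischemic stroke. MCAO mice had the artery that feeds most of the right hemisphere closed with a filament for 90 min, and the brains were taken 30 min after the filament was withdrawn, 2 h after onset. Sham-control mice had the same anesthesia and surgery with no filament. The tissue was a single coronal slice at the level of bregma, which the study takes as the core of the infarct, parted into its right (IP) and left (contralateral, CL) sides.

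All *diabetic* mice, MCAO and sham-control alike, were males of the line BKS-Lepr db/db/JOrlRj, 8 to 12 weeks old, so every array carried the same mutation in the leptin receptor gene, which makes mice obese and hyperglycemic. BKS mice without the mutation were not among the groups, so diabetes and the BKS strain cannot be told apart in any comparison with other mice. Buprenorphine and isoflurane were given to MCAO and sham-control mice alike, and the study kept only mice whose cerebral blood flow fell and recovered past set limits. For comparison, 12 IP arrays each came from *old* C57BL/6J males (18 months) and from young *male* C57BL/6J mice (8 to 12 weeks), with 8 MCAO and 4 sham-control mice in each group. The labels number separate mice, so each array of a hemisphere is 1 mouse.

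Immediate early genes are transcribed within minutes of a strong stimulus, with no need for new protein, by factors such as CREB and SRF that are already bound near their start sites. In neurons they are driven by calcium entry after depolarization, and a hemisphere that loses its blood supply depolarizes in waves. Their products are transcription factors (Fos, Jun and Egr families), phosphatases that shut off MAP kinases, and proteins that act at synapses. Protein misfolding releases HSF1, which switches on genes of the HSP70 chaperones. Endothelial cells, microglia and perivascular cells add chemokines, prostaglandin synthesis and matrix proteins in the first hours.

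The values were log2 signals of Clariom S arrays, so a difference of 1 is a 2-fold change, and 19505 named genes were tested. The 8 MCAO IP arrays had a median signal of 6.34 to 6.41, against 6.29 to 6.32 in the 4 sham IP arrays. The spread of signal within an array (SD over all 29129 probe sets, named or not) was 2.43 to 2.52 in MCAO IP arrays and 2.51 to 2.54 in sham IP arrays. It was smallest in MCAO mice 1, 4 and 5. Between mice, the median SD per gene was 0.273 in the MCAO group and 0.186 in the sham group. Markers of neurons lay at a median percentile of 95.7 among all genes by signal, striatal neurons at 92.8, cortical neurons at 89.9, astrocytes at 86.9 and oligodendrocytes at 82.1, as the labelled tissue would give. The Y-linked gene Uty had 8.13 to 8.80 in MCAO IP arrays and 8.6 to 8.89 in sham IP arrays, and Xist was not analysed here. Lepr itself, low in all mice, had a lowest, median and highest value of 4.54, 5.57 and 6.37 in MCAO mice, against 4.53, 5.43, 5.24 and 6.16 in sham mice (difference 0.20, adjusted p = 0.80). Its signal is no check of the mutation, which all mice carried.

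In the IP hemisphere of *diabetic* mice 53 genes were higher after MCAO than after sham surgery, 0.272% of those tested, and no gene was called lower at an adjusted p under 0.05 (limma with Benjamini-Hochberg adjustment; 0% of those tested, against 1634 lower and 1019 higher at an unadjusted p under 0.05). The genes that rose were led by Npas4, Ccl3, the HSP70 pair Hspa1b and Hspa1a, Fos, Fosb and Ccn1. Their differences were between 0.50 and 3.96 on the log2 scale, with a median of 1.39. In 52 of the 53, all 8 MCAO mice lay above all 4 sham mice, which 0.974% of all genes did. The exception was Tiparp. The genes were called on these same arrays, so the lack of overlap follows largely from their choice and is no further evidence. At the study's looser threshold of 0.25, 345 genes were higher (1.77%) and 396 lower (2.03%). The count rested on few sham mice: it was 17, 26, 12 or 21 without sham mouse 1, 2, 3 or 4, and between 36 and 69 without any 1 MCAO mouse. Ccn1, Fos, Fosb, Junb, Npas4 and Rgs2 were called in every one of the alternatives run.

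**Figure D1:**
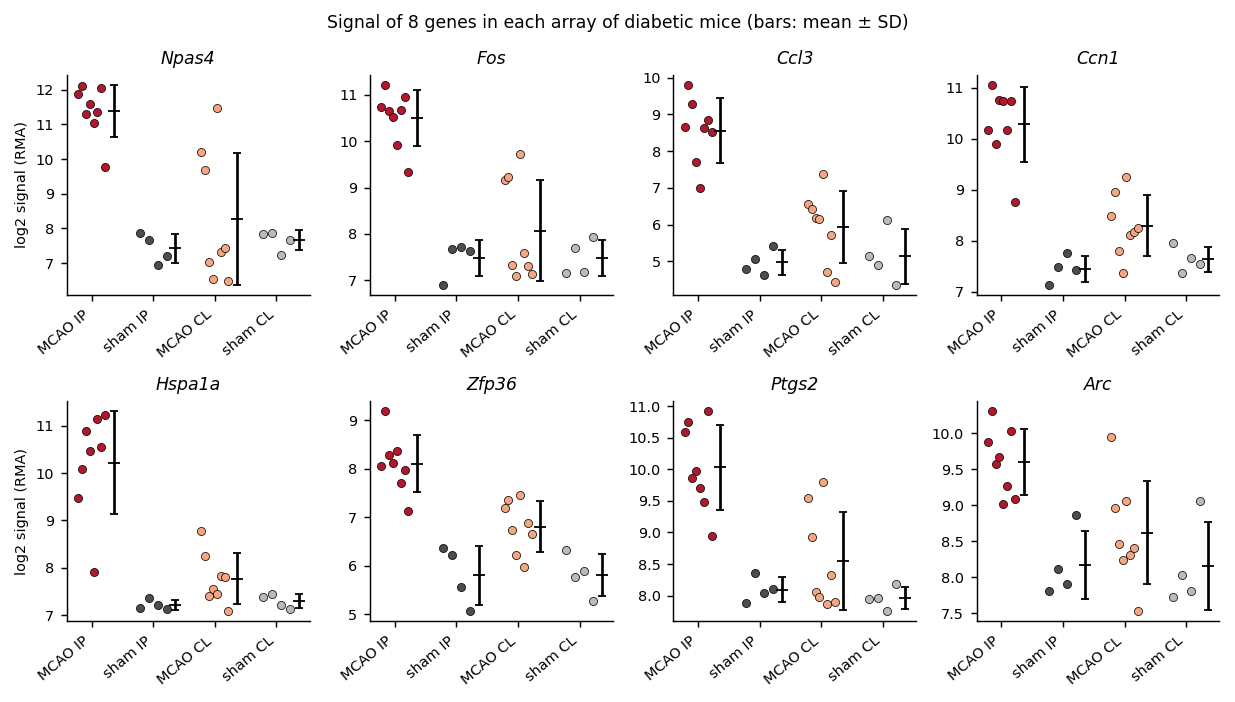
Log2 signal (y axis) of 8 genes that rose, in each array of *diabetic* mice, with points for single mice and bars for the group mean ± SD; groups from left to right are MCAO IP, sham IP, MCAO CL and sham CL. All 8 MCAO IP points lie above all 4 sham IP points in each panel, and MCAO CL points of Npas4 and Fos spread between 6.49 and 11.48 and between 7.10 and 9.73.

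The early transcription factors were the group with most calls, with 12 of 31 measured members higher and 0 lower, and 28 of 31 differences above 0, against 44.742% of all genes. The median over the list was 0.70, against -0.03 over all genes. This list, like the others, was chosen with earlier results of these data known, so its count and signs are no independent evidence. Npas4, a neuronal factor that calcium entry switches on, had the largest rise of all genes. It had a lowest, median and highest value of 9.76, 11.48 and 12.12 in MCAO mice, against 7.88, 7.67, 6.96 and 7.21 in sham mice. That is 15.6-fold (95% interval 9.05 to 26.8, adjusted p = 0.000462). The groups did not overlap, and MCAO mouse 8 stood apart as the lowest.

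Fos and Fosb encode partners of Jun in the AP-1 dimer. Fos had 9.34, 10.66 and 11.22 in MCAO mice, against 6.90, 7.68, 7.72 and 7.63 in sham mice (8.08-fold, interval 5.19 to 12.6, adjusted p = 0.000716). Fosb had 9.5, 10.31 and 11.10 in MCAO mice, against 7.29, 7.25, 7.25 and 7.60 in sham mice (7.61-fold, interval 5.12 to 11.3, adjusted p = 0.000462). Both were far above every sham mouse in all 8 MCAO mice. Their partners moved less: Junb rose by 1.66 ± 0.19 (SE, adjusted p = 0.00229) and Jun by 1.39 ± 0.16 (SE, adjusted p = 0.00229). Junb had 9.26, 9.93 and 10.44 in MCAO mice, against 7.91, 8.32, 8.34 and 8.52 in sham mice. The weakest Junb value after MCAO was thus above the strongest sham value by less than a 2-fold step.

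Nr4a1, an orphan nuclear receptor of the early response, had 10.17, 11.24 and 11.92 in MCAO mice, against 8.63, 8.91, 9.04 and 9.68 in sham mice (4.17-fold, adjusted p = 0.00822). Of the Egr zinc-finger factors, Egr4 rose 3.74-fold (adjusted p = 0.012), with 8.26, 9.18 and 10.08 in MCAO mice, against 7.08, 7.27, 7.38 and 7.53 in sham mice. Egr1, used in many studies as a marker of neuronal activity, had high signal in every array. It had 11.74, 11.98 and 12.64 in MCAO mice, against 10.73, 10.80, 10.82 and 11.29 in sham mice (difference 1.17 ± 0.17 (SE), adjusted p = 0.012). Egr2, a related factor, differed by 2.02 with no overlap between the groups, but its MCAO mice ran from 8.08 to 10.79 and its adjusted p was 0.0598 (0.0138 without MCAO mouse 5, with a difference of 2.22). The remaining called members of the list were Atf3 (1.79), Nr4a3 (1.77), Fosl2 (1.53) and Ier2 (1.40), of which some were chosen after their values were seen. The call of Fosl2 was lost without any 1 sham mouse (adjusted p up to 0.142) and without 5 of the 8 MCAO mice, each left out alone. Those of Egr1, Egr4 and Nr4a3 were lost without 3 of the 4 sham mice, each left out alone, and that of Nr4a1 without 2. Nfil3 and Per1, with differences of 1.11 and 0.54, missed the threshold at adjusted p = 0.0502 and 0.0574.

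The next lists had fewer calls than the early transcription factors. Of 23 activity-regulated effectors 3 were higher, of 19 genes that feed back on MAP kinases and G proteins 5 were higher, and of 10 genes of mRNA decay and translation brakes 2 were higher. None was called lower. The calls among the effectors were Arc, Gem and Btg2, which is also in the decay list beside Zfp36. Arc, whose protein acts at excitatory synapses, had 9.02, 9.62 and 10.31 in MCAO mice, against 7.81, 8.11, 7.91 and 8.86 in sham mice (difference 1.43 ± 0.26 (SE), adjusted p = 0.0346). Its lowest MCAO mouse and highest sham mouse were thus close together, and the call was lost without sham mouse 1, 2 or 3 or without MCAO mouse 1, 3, 4 or 7 (adjusted p up to 0.142). Btg2, an antiproliferative gene, had 8.40, 9.47 and 10.21 in MCAO mice, against 7.60, 7.72, 7.78 and 7.59 in sham mice (difference 1.79, adjusted p = 0.00846). Its call was lost in 2 of the 4 fits that left out a sham mouse.

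Gem, a small GTPase, dampens calcium channels. It had 6.83, 7.87 and 8.34 in MCAO mice, against 5.75, 6.65, 6.17 and 5.66 in sham mice (difference 1.69, adjusted p = 0.0135). The call of Gem was lost without 3 of the 4 sham mice, each left out alone. The feedback genes were Rgs2, which speeds the turn-off of G proteins, the MAP kinase phosphatases Dusp1 and Dusp6, and Gadd45b and Gadd45g, stress proteins that bind a kinase upstream of p38 and JNK. Rgs2 had 10.27, 10.92 and 11.23 in MCAO mice, against 9.08, 9.02, 9.26 and 9.42 in sham mice (difference 1.64 ± 0.19 (SE), adjusted p = 0.00224). Dusp1 had 11.40, 11.85 and 12.41 in MCAO mice, against 10.19, 10.86, 10.96 and 10.67 in sham mice (difference 1.15, adjusted p = 0.0254). Gadd45b rose by 1.11 ± 0.15 (SE) and Gadd45g by 1.87 ± 0.32 (SE), with adjusted p of 0.00814 and 0.0254. Dusp6, a phosphatase that acts on ERK, differed by 1.24 (adjusted p = 0.0346), and Dusp14 by 0.63, short of the threshold (adjusted p = 0.0873). The calls of Dusp1, Dusp6 and Gadd45g were lost without any 1 sham mouse (adjusted p up to 0.105, 0.129 and 0.116) and without 4, 6 and 3 of the 8 MCAO mice, each left out alone. Zfp36, which binds AU-rich mRNAs of cytokines and hastens their decay, had the largest rise among the decay genes. It had 7.12, 8.09 and 9.19 in MCAO mice, against 6.36, 6.21, 5.57 and 5.06 in sham mice (4.93-fold, adjusted p = 0.00814). The calls of Zfp36 and Gadd45b were each lost in 1 of the 4 fits that left out a sham mouse.

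Of 22 heat shock genes only the HSP70 pair rose. Hspa1b had 8.19, 10.76 and 11.28 in MCAO mice, against 7.11, 7.47, 7.35 and 7.06 in sham mice (8.49-fold, interval 4.2 to 17.2, adjusted p = 0.0135). Hspa1a had 7.91, 10.51 and 11.22 in MCAO mice, against 7.15, 7.37, 7.21 and 7.13 in sham mice (8.02-fold, interval 3.86 to 16.7, adjusted p = 0.0189). Both are stress-inducible HSP70 chaperones with nearly identical sequences, so probes may read either mRNA and the pair counts as 1 signal. MCAO mouse 5 was the lowest for both, and Hspa1a lost its call without any 1 sham mouse (adjusted p 0.0762 to 0.0851), Hspa1b without sham mouse 1, 3 or 4. The co-chaperone Dnajb1 differed by 0.78 (adjusted p = 0.261, and 0.0333 without MCAO mouse 5), the small chaperone Hspb1 by 0.80 (adjusted p = 0.179), and the median of the list was 0.07. Genes of the unfolded protein and integrated stress response were not called (0 of 22, median -0.09), Atf4 among them with 0.38 and an adjusted p of 0.198. With 0.272% of all genes called, a list of 22 would likely hold no call by size alone.

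**Figure D2:**
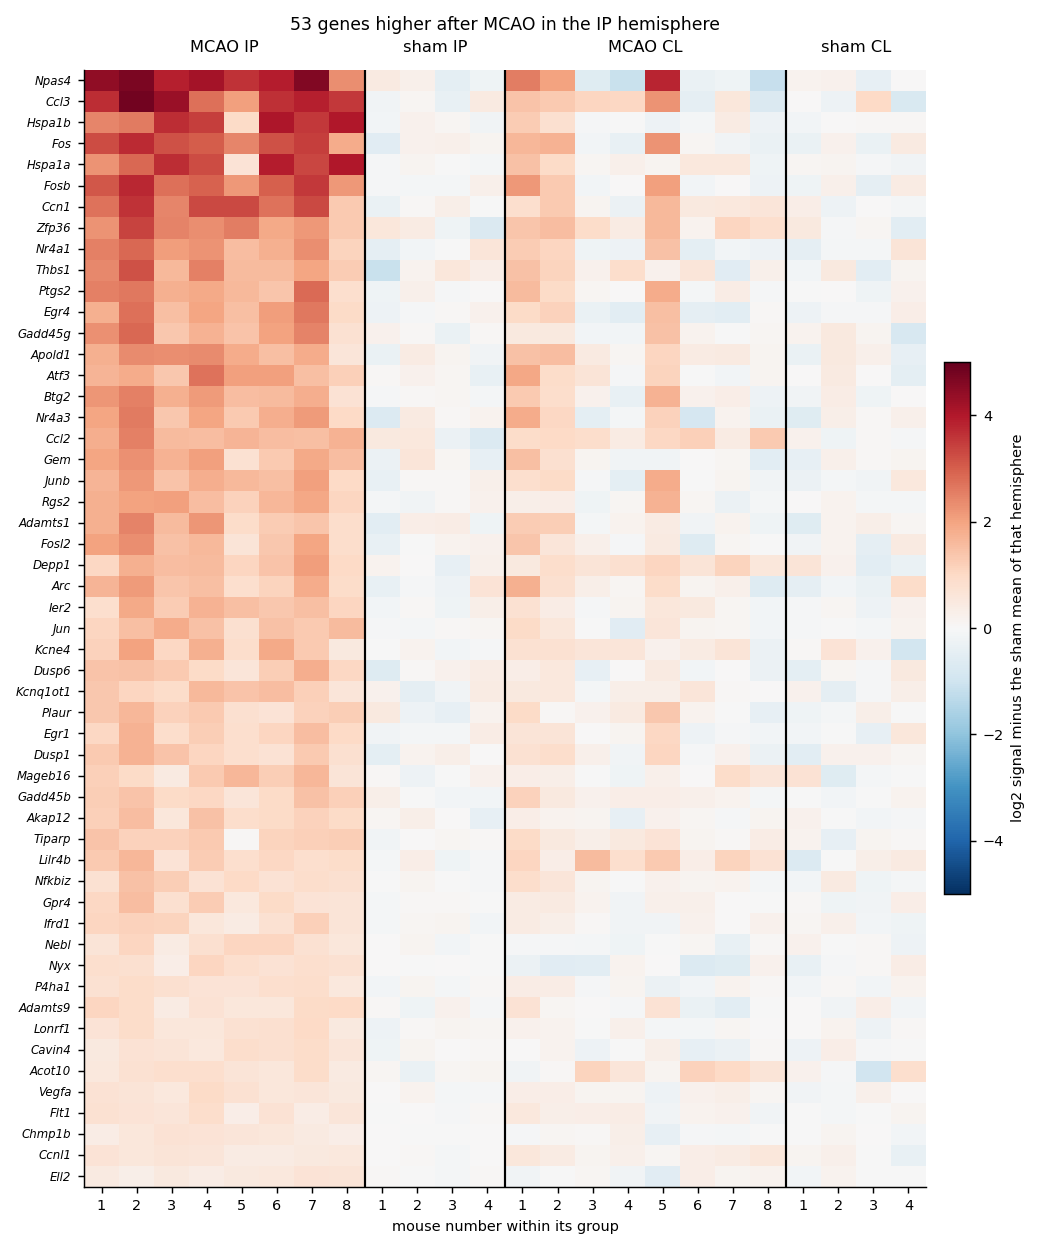
Heat map of the 53 genes that rose (rows) in the 24 arrays of *diabetic* mice (columns, MCAO IP, sham IP, MCAO CL and sham CL); color gives the log2 signal minus the sham mean of the same hemisphere, on a scale of -5 to 5. The MCAO IP block is positive in nearly every cell, as the choice of genes on these IP arrays would give. In the MCAO CL block mice 1, 2 and 5 hold most of the positive cells.

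Stretches of the promoters of Npas4, Fos, Ccn1 and Hspa1a are shown because these genes led the rises of 3 groups and because short known motifs lie in them. They are the 180 bases before the start in RefSeq, build GRCm38.p6, written 5′ to 3′ on the gene's strand, at chr19:4989972-4990151 (minus strand), chr12:85473710-85473889 (plus strand), chr3:145649986-145650165 (minus strand) and chr17:34972157-34972336 (minus strand). Capitals mark the letters TGACGT, on either strand (the reverse reads ACGTCA), the letters TATAAA on the gene's strand, and GAANNTTC on either strand.
Npas4: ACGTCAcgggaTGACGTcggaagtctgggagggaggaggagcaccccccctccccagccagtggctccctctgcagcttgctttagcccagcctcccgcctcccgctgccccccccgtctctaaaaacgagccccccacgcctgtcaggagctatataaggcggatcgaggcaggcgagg
Fos: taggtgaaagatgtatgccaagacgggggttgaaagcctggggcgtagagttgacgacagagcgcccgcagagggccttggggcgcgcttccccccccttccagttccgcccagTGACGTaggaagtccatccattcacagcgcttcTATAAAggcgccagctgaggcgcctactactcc
Ccn1: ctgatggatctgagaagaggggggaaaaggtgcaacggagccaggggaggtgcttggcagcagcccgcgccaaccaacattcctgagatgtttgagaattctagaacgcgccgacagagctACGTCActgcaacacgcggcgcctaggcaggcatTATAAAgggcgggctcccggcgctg
Hspa1a: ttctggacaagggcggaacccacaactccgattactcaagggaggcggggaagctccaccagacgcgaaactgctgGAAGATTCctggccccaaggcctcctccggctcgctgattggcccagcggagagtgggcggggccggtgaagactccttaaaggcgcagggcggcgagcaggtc

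TGACGT, the core of the element that CREB binds, lay 66 to 61 bases before the start of Fos, 59 to 54 before that of Ccn1, and at 2 places in the Npas4 stretch, 180 to 175 and 169 to 164 bases before its start. TATAAA lay 33 to 28 bases before the start of Fos and 25 to 20 before that of Ccn1. GAANNTTC, the paired unit of a heat shock element, lay 104 to 97 bases before the start of Hspa1a. The Hspa1b window of 180 bases differed from that of Hspa1a at 1 base. RefSeq windows of 300 bases (250 before to 50 after the start) matched 43 of the 53 genes that rose. TGACGT, searched on both strands, was in 16 of the 43 (37.2%), against 9.97% of the 15691 measured genes with a window. The full palindrome TGACGTCA, which holds TGACGT, was in 5 of them (11.6%, against 2.63%): Btg2, Ccnl1, Dusp1, Ell2 and Flt1. TATAAA was in 11 (25.6%, against 9.55%), the NF-kappaB site by its name in 7 (16.3%, against 5.51%), GAANNTTC in 5 (11.6%, against 8.1%), the CArG box of SRF by its name in 2 (4.65%, against 1.7%), and the AP-1 site TGANTCA in 3 (6.98%, against 8.35%). The longer heat shock element, in which GAA follows GAANNTTC after any 2 bases, was in 0 of the 43, Hspa1a and Hspa1b included, against 0.61% of all windows. These are counts of letters in the windows, with no test.

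Among genes of inflammation 4 were called, the chemokines Ccl3 and Ccl2, Ptgs2 and Nfkbiz. Of 26 chemokines 2 were higher, of 16 genes of prostaglandin synthesis and innate signals 1, of 16 NF-kappaB genes 1, of 22 cytokines 0, and of 12 adhesion genes 0. Of all genes tested 0.272% were called, so lists of these sizes would likely hold none by size alone. Ccl3, a chemokine of microglia and macrophages, had 7.01, 8.65 and 9.81 in MCAO mice, against 4.79, 5.07, 4.62 and 5.41 in sham mice (12.0-fold, interval 6.57 to 22, adjusted p = 0.00224). It had the second largest rise of all genes, and the groups did not overlap. Ccl2, which draws monocytes, had 6.56, 6.70 and 7.58 in MCAO mice, against 5.53, 5.59, 4.74 and 4.35 in sham mice (difference 1.75 ± 0.24 (SE), adjusted p = 0.00814). The call of Ccl2 was lost in 1 of the 4 fits that left out a sham mouse. The neutrophil chemokines Cxcl2 and Cxcl1 differed by 1.21 and 1.02 with adjusted p of 0.0583 and 0.0598, and neither overlapped between the groups.

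Ptgs2, the inducible cyclooxygenase, had 8.95, 9.92 and 10.93 in MCAO mice, against 7.88, 8.36, 8.04 and 8.10 in sham mice (3.83-fold, adjusted p = 0.0189), and without any 1 sham mouse its adjusted p was 0.0577 to 0.0882. Nfkbiz, a nuclear protein that steers NF-kappaB targets, had 7.39, 7.53 and 8.13 in MCAO mice, against 6.65, 6.81, 6.65 and 6.62 in sham mice (difference 0.95, adjusted p = 0.0102). Its call was lost without 3 of the 4 sham mice, each left out alone. Il1b, the cytokine often measured first after a stroke, did not pass the test. It had 3.78, 5.56 and 6.12 in MCAO mice, against 4.12, 3.81, 4.43 and 3.40 in sham mice (difference 1.2 ± 0.45 (SE), adjusted p = 0.285), and the groups overlapped. Il10, Lif and Socs3 differed by 0.65, 1.15 and 0.87, with adjusted p between 0.21 and 0.237.

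Vascular and matrix genes were the second group by calls, with 8 of 19 members higher, 0 lower and a median of 0.51. Ccn1, a matrix protein that integrins bind, had 8.76, 10.45 and 11.06 in MCAO mice, against 7.13, 7.49, 7.75 and 7.42 in sham mice (7.14-fold, interval 4.30 to 11.8, adjusted p = 0.00261). Thbs1, an antiangiogenic matrix protein, had 6.90, 7.42 and 8.81 in MCAO mice, against 4.52, 5.81, 6.17 and 5.96 in sham mice (4.06-fold, adjusted p = 0.035). Sham mouse 1 was the lowest for Thbs1 by more than a 2-fold step, and the call was lost without any 1 sham mouse (adjusted p up to 0.125) or without MCAO mouse 1, 3, 4, 6 or 7. Apold1, an endothelial gene of the early response, had 7.49, 8.74 and 9.23 in MCAO mice, against 6.53, 7.26, 6.99 and 6.69 in sham mice (adjusted p = 0.0137). Plaur, the urokinase receptor, rose by 1.17 ± 0.20 (SE, adjusted p = 0.0237), and the scaffold Akap12 by 1.09 ± 0.18 (SE, adjusted p = 0.0254). The calls of Apold1, Plaur and Akap12 were lost without 3 of the 4 sham mice, each left out alone. Plaur and Akap12 were also lost without 2 of the 8 MCAO mice. The matrix proteases Adamts1 and Adamts9, named after their values were seen, rose by 1.57 and 0.77 (adjusted p = 0.0438 and 0.0407), and both calls were lost without any 1 sham mouse (adjusted p up to 0.174 and 0.212) and without 5 and 6 of the 8 MCAO mice, each left out alone. Vegfa, in this list too, is described next.

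Of 22 hypoxia genes 2 rose, Vegfa and P4ha1, a collagen hydroxylase, and the median of the list was -0.03. Vegfa, the growth factor of endothelial cells, had 9.14, 9.25 and 9.58 in MCAO mice, against 8.64, 8.80, 8.53 and 8.58 in sham mice (difference 0.66 ± 0.10 (SE), adjusted p = 0.0148). The call of Vegfa was lost without 3 of the 4 sham mice, each left out alone. P4ha1 had 9.74, 9.99 and 10.13 in MCAO mice, against 9.08, 9.35, 9.10 and 9.28 in sham mice (difference 0.77, adjusted p = 0.00495). Flt1, a receptor for VEGF, had 9.25, 9.57 and 9.80 in MCAO mice, against 8.89, 8.96, 8.86 and 8.98 in sham mice (difference 0.62, adjusted p = 0.0346). These were small steps, and each was clear of the sham range in all 8 mice. Flt1 was the 1 called gene of 16 endothelial markers, and its call was lost without any 1 sham mouse (adjusted p up to 0.133) or without MCAO mouse 1, 2, 3, 4, 6 or 8. Adm and Kdm3a, other genes that low oxygen induces, differed by 0.73 and 0.32 (adjusted p = 0.155 and 0.32).

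Of the 53 genes, 16 were in none of the lists and were chosen after their values were seen. Depp1 differed by 1.44, the potassium channel subunit Kcne4 by 1.32, the noncoding RNA Kcnq1ot1 by 1.22 and the immune receptor Lilr4b by 1.07. The others were Mageb16, Tiparp, Gpr4, a proton-sensing receptor, Ifrd1, Nebl, Nyx, Lonrf1, Cavin4, Acot10, Chmp1b, Ccnl1 and Ell2, with differences between 0.50 and 1.14. The calls of Kcne4, Mageb16, Tiparp, Gpr4, Ifrd1, Acot10 and Ell2 were lost without any 1 sham mouse. These were also lost without 5 to 7 of the 8 MCAO mice, each left out alone. Nebl, Nyx, Lonrf1, Chmp1b and Ccnl1 were lost without any 1 sham mouse too. Kcnq1ot1, Lilr4b and Cavin4 were lost without 3 of the 4 sham mice, each left out alone, and Depp1 without 1. Kcne4 also had low signal, with a sham mean of 3.63. Tiparp was the 1 gene with an overlap, since MCAO mouse 5 had 7.53, level with the sham mice (7.31, 7.5, 7.56 and 7.53), while the group's median was 8.64.

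**Figure D3:**
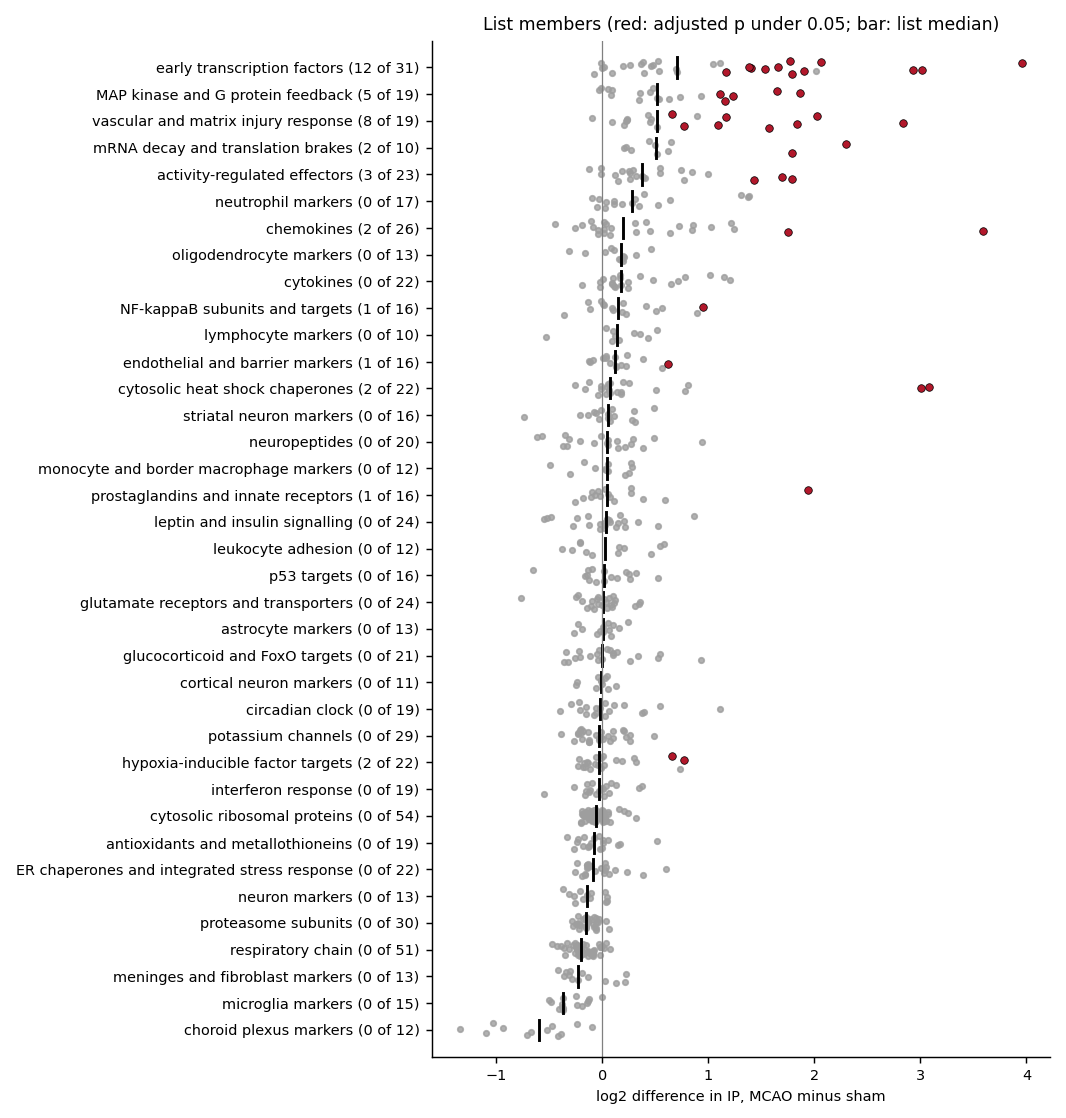
Log2 difference, MCAO minus sham, in the IP hemisphere of *diabetic* mice (x axis) for the members of 37 gene lists with at least 5 measured genes (rows); each point is a gene, red where it was called, and the bar is the list's median. Red points lie to the right of 0 in every list that has any, and the lists with most of them are the early transcription factors (12) and vascular and matrix genes (8).

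Leptin and insulin signaling is where the mutation of these mice acts, and none of 24 such genes was called (median 0.03). Of all genes tested 0.272% were called, so this list and each of those named next would likely hold none by size alone. Foxo1, which insulin holds out of the nucleus, differed by 0.53 (adjusted p = 0.235), and Slc2a4, the insulin-regulated glucose transporter, by -0.52 (adjusted p = 0.216). Glucocorticoid-responsive genes (0 of 21), antioxidant genes (0 of 19), clock genes (0 of 19), interferon-stimulated genes (0 of 19), p53 targets (0 of 16), glutamate receptors (0 of 24), potassium channels (0 of 29) and neuropeptides (0 of 20) held no call. At 0.25, glucocorticoid-responsive genes had 3 members higher, clock genes 2 higher, neuropeptides 1 higher, leptin and insulin genes 2 higher and 1 lower, and antioxidant genes 1 lower. Neutrophil markers were not called (0 of 17, and 3 higher at 0.25), but 14 of 17 differences were above 0, and their mean signal was 4.5 to 5.06 in MCAO mice, against 4.2 to 4.86 in sham mice. These markers had low signal (median percentile 22.8), and their median difference was 0.28, or 0.19 without MCAO mice 1, 4 and 5. Of the olfactory receptor genes, low in signal too, 68.1% had differences above 0. S100a8 differed by 1.38 (adjusted p = 0.178), S100a9 by 1.30 (adjusted p = 0.205) and Retnlg by 1.38 (adjusted p = 0.212). Markers of monocytes (0 of 12, with 8 differences above 0) and lymphocytes (0 of 10, with 9 above 0) were not called, and brains had been rinsed with saline.

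In 308 genes all 8 MCAO mice lay below all 4 sham mice (1.58%), but none of the lower genes passed the test. The closest was Cog4, a subunit of a Golgi tethering complex chosen after its value was seen. Cog4 averaged 7.74 ± 0.21 in MCAO mice and 8.34 ± 0.05 in sham mice (SD, n = 8 and 4; limma difference -0.61 ± 0.12 (SE), adjusted p = 0.0641), and it passed where only genes at or above the median signal were tested. Groups of genes with small differences of 1 sign stood beside it. All 15 microglia markers had differences below 0, with a median of -0.37 and none called. Of all 19505 genes, 10778 had differences below 0. Their mean signal was 6.87 to 7.33 in MCAO mice, against 7.43 to 7.49 in sham mice, and the groups did not overlap. The smallest adjusted p of these was 0.269, for Fcrls and C1qa, with differences of -0.38 and -0.41. Itgam, an integrin of myeloid cells in the adhesion list, differed by -0.39 (adjusted p = 0.169). In bulk tissue, fewer cells of a type and less RNA per cell cannot be told apart.

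The same was seen for 2 lists of housekeeping machinery. Of 51 respiratory chain genes, 48 had differences below 0 (median -0.20) with a mean signal of 9.99 to 10.18 in MCAO mice, against 10.19 to 10.35 in sham mice. Of 30 proteasome genes, 28 had differences below 0 (median -0.15), and neuron markers had a median of -0.15. Of 54 genes of cytosolic ribosomal proteins, 39 had differences below 0, with a median of only -0.06. Their mean signal overlapped between the groups, with 10.569 to 10.85 in MCAO mice and 10.655 to 10.855 in sham mice. None of these genes was called, and 10778 of all 19505 genes had differences below 0. Array spread also differed between the groups, and medians without the arrays of smallest spread are given below. The median difference was 0.08 in the 4876 genes with the lowest signal and -0.07 in the 4877 genes with the highest. Olfactory receptor genes, silent in most brain tissue, had a median of 0.10 (1091 genes, 0 called). Without MCAO mice 1, 4 and 5, whose arrays had the smallest spread, the median of the olfactory receptors was 0.00, that of microglia markers -0.20 (13 of 15 below 0), of the respiratory chain -0.14 (49 of 51), of the proteasome -0.12 (27 of 30), and of neuron markers -0.08. The early transcription factors then had a median of 0.79, and 24 genes were called, 20 of them among the 53. The part of array spread in the lower values was not tested.

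Markers of the choroid plexus, the tissue that makes cerebrospinal fluid, differed more between mice of 1 group than between the group means. Their mean signal was 5.27 to 5.49 in MCAO mice 5, 7 and 8, 6.41 in mouse 2 and 8.34 to 8.89 in the other MCAO mice, against 5.5 in sham mouse 1 and 8.46 to 8.58 in the other sham mice. All 12 of these markers had differences below 0 (median -0.60), and none was called. With their mean as a covariate, 51 genes were called higher and 1 lower, 48 of them among the 53.

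MCAO mice differed from each other in how far the 53 genes rose. The mean over the 53 genes above the sham mean was 1.59, 1.96, 1.47, 1.65, 1.18, 1.5, 1.72 and 1.13 in MCAO mice 1 to 8, against -0.11 to 0.08 in the sham mice. Mouse 2 had the highest value in 28 of the 53 genes and mouse 7 in 10, while mouse 8 had the lowest in 24 and mouse 5 in 16. The HSP70 pair went by another order. It was 2.35, 2.74, 3.67, 3.35, 0.82, 3.98, 3.44 and 4.00 above the sham mean in mice 1 to 8, so mouse 8, lowest for many early genes, was the highest for the chaperones. In mouse 8 the 12 called early transcription factors averaged 1.34, against 2.66 in mouse 2.

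**Figure D4:**
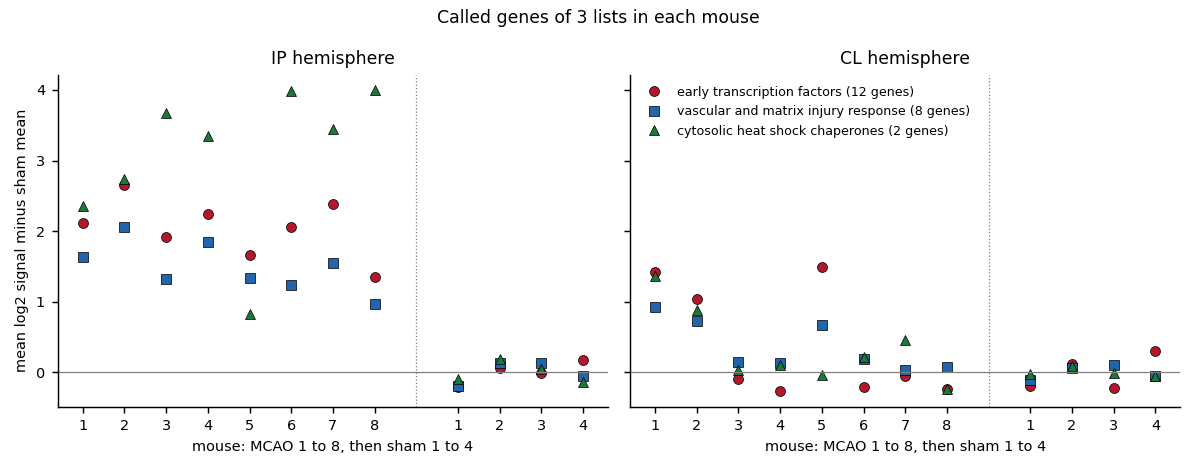
Mean log2 signal minus the sham mean of the same hemisphere (y axis) over the called genes of 3 lists, for each mouse (x axis), in IP and CL panels. In IP, mouse 5 is low for the heat shock pair (0.82) and mouse 8 high (4.00); in CL, mice 1, 2 and 5 are high for early transcription factors (1.42, 1.03 and 1.49).

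The CL array of MCAO mouse 5 had a median signal of 6.16 and a spread of 2.44, against 6.25 to 6.39 and 2.50 to 2.55 in the other 11 CL arrays. In the CL hemisphere of the same mice no gene was called (849 at an unadjusted p under 0.05, limma), and the smallest adjusted p was 0.138. At 0.25, 4 genes were lower there (0.0205%). The 53 genes had a median difference of 0.31 there, between -0.28 and 0.99, with 48 above 0 and 8 at an unadjusted p under 0.05 (limma). Without MCAO mouse 5 the median of the 53 genes in CL was 0.25, with 49 above 0 and again no call (998 at an unadjusted p under 0.05). Npas4 in the CL hemisphere had 10.20, 9.68, 7.04, 6.54, 11.48, 7.31, 7.44 and 6.49 in MCAO mice 1 to 8, against 7.85, 7.86, 7.24 and 7.68 in sham mice. MCAO mice 1, 2 and 5 were thus above the sham range and the other 5 below or within it. The CL values of Fos were 9.16, 9.23, 7.34, 7.10, 9.73, 7.58, 7.31 and 7.14 in MCAO mice, against 7.16, 7.69, 7.17 and 7.93 in sham mice, and the same 3 mice were high. The 12 called early transcription factors averaged 1.42, 1.03 and 1.49 above the CL sham mean in these mice, against -0.27 to -0.05 in the other 5 MCAO mice and -0.22 to 0.30 in sham mice. The HSP70 pair was 1.37 and 0.88 above the CL sham mean in mice 1 and 2, and -0.05 in mouse 5. The 2 called chemokines, Ccl3 and Ccl2, went by another pattern. They averaged 0.30 to 1.64 above the CL sham mean in all 8 MCAO mice, against -0.41 to 0.52 in sham mice.

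The difference between hemispheres was tested in 1 model with both, in each mouse. All 53 genes had larger differences in IP than in CL, which follows in part from their choice on the IP arrays, but none passed the test of the difference itself (0 of 19505 at 0.05 or 0.25, 1912 at an unadjusted p under 0.05). Ccn1 had an IP difference larger by 2.18 ± 0.40 (SE, adjusted p = 0.258), Hspa1b by 2.86 (adjusted p = 0.258), Fos by 2.43 (adjusted p = 0.259) and Npas4 by 3.35 ± 0.81 (SE, adjusted p = 0.297). The immune receptor Lilr4b was nearly level, with differences of 1.07 in IP and 0.92 in CL. No gene is therefore called particular to the IP hemisphere.

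The same comparison in other mice gave the setting for these values, though groups had been normalized apart, so only MCAO minus sham differences are compared. In *old* IP hemispheres 13 genes were higher (0.0666%) and 1 lower (0.00513%), and in young *male* IP hemispheres, without MCAO mouse 3 and sham mouse 1, 34 were higher (0.174%) and 6 lower (0.0308%). These *male* arrays had a median correlation of 0.60 and 0.55 with the other *male* IP arrays, which had 0.98 to 0.99, and the spread of their signal was 1.47 and 1.45, against at least 2.32. The study left out ischemic males only and kept all its sham males, and does not name them, so the *male* set here is not the one it analysed. With all 12 young males, 1 gene was higher and none lower (limma, 205 at an unadjusted p under 0.05), 1 of the 53 genes was called, and their median was 1.22. Of the 53 genes, 12 were called in *old* and 23 in *male* mice, here and below without these arrays. Npas4 differed by 3.96 in *diabetic*, 4.31 in *old* and 4.88 in *male* mice. Ccl3 differed by 3.59 in *diabetic*, 2.45 in *old* and 3.18 in *male* mice. Both genes had a difference above 0 in all 3 groups, with no single order of the groups. Hspa1a differed by 3.00 in *diabetic*, 1.94 in *old* and 1.58 in *male* mice, and Thbs1 by 2.02, 0.44 and 1.44 in the same order. Vegfa (0.66, 0.20 and 0.23) and Flt1 (0.62, 0.06 and 0.32) had their largest difference in *diabetic* mice among these groups. Kcnq1ot1 (1.22, 0.17 and -0.36), Nyx (0.78, -0.27 and -0.50) and Lilr4b (1.07, -0.16 and -0.21) were near or below 0 in the other groups.

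None of these gaps passed a test of the difference. Between *diabetic* and *old* mice no gene was called (1643 at an unadjusted p under 0.05, smallest adjusted p = 0.508). Between *diabetic* and *male* mice no gene was called either (2122 at an unadjusted p under 0.05, smallest adjusted p = 0.235, for Nyx), and at the looser threshold of 0.25, 11 differences were larger (0.0564%) and 10 smaller (0.0513%) in *diabetic* mice. The median over the 53 genes was 1.39 in *diabetic*, 0.87 in *old* and 1.07 in *male* mice, and the first of these is raised by the choice of genes on the *diabetic* arrays. Microglia markers had a median of -0.37 in *diabetic*, 0.00 in *old* and 0.07 in *male* mice, and the respiratory chain -0.20, -0.01 and 0.07. Neutrophil markers had medians of 0.28, -0.15 and -0.09 in that order. *Old* mice differed from *diabetic* mice in strain and age, and *male* mice in strain and in the set of experiments. Each of these groups also had its own type of filament for the occlusion, and these cannot be told apart from diabetes.

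**Figure D5:**
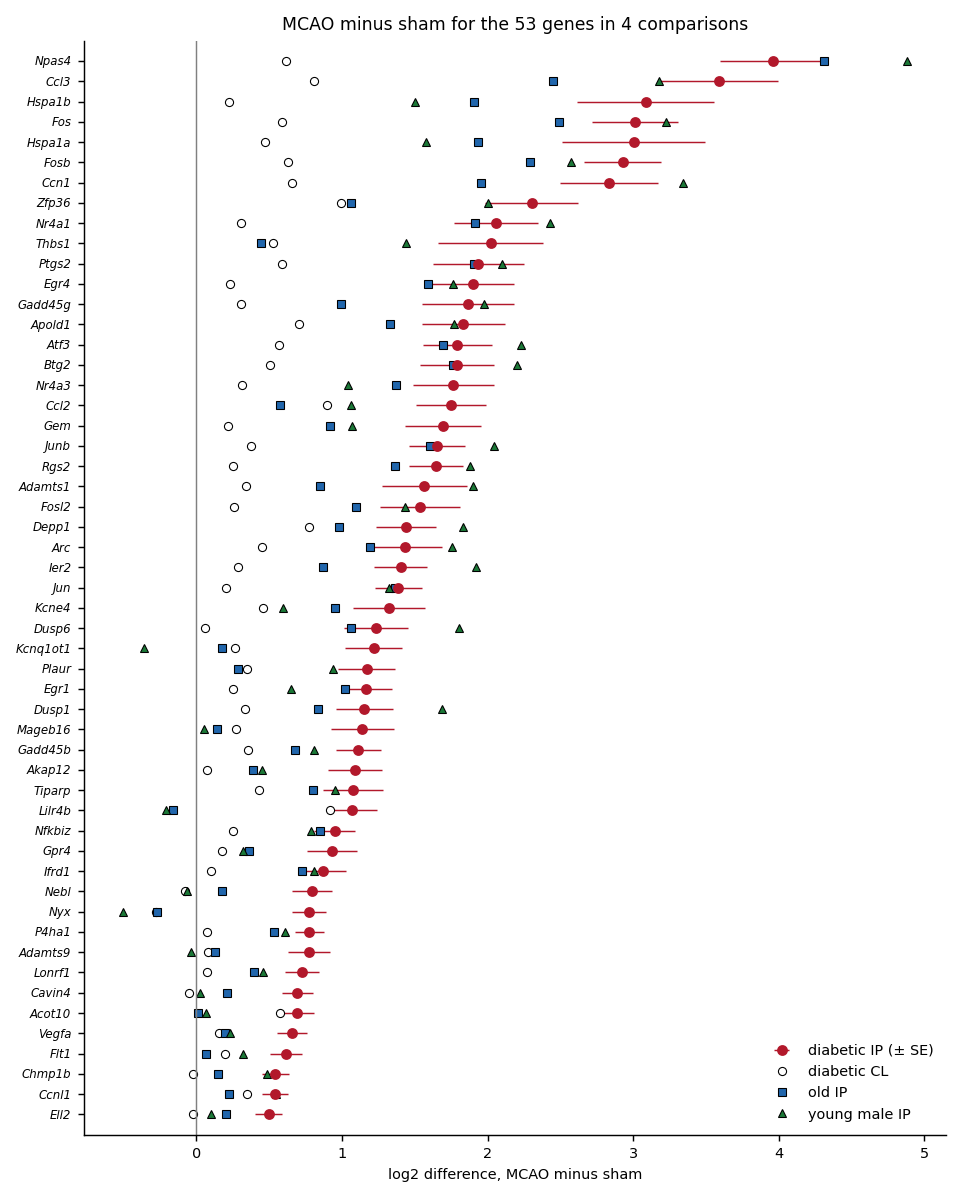
Log2 difference, MCAO minus sham, of the 53 genes called in the IP hemisphere of *diabetic* mice (rows, with their SE), with the same genes in *diabetic* CL, *old* IP and young *male* IP (x axis). Nearly all points of *old* and *male* mice lie above 0 (51 and 48 of 53), and CL points lie between -0.28 and 0.99.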

How the data were processed

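Total RNA from the IP and CL sides of a slice at bregma was hybridized to Clariom S Mouse arrays. The authors normalized each group of mice on its own by RMA, and the deposited values are log2 signals. The study's methods describe RMA in R with Bioconductor packages, while the submitters' processing notes name Affymetrix Expression Console with no version, and which of them made the values is not given in the sources used here. A probe set was named through the platform annotation: 19572 of 29129 had 1 symbol, 9557 had none and 0 had several, which left 19505 genes (of several probe sets of a gene, the 1 with the highest mean was kept, for 55 genes). In the columns of diabetic, old and female mice, a block of 8800 rows lay 3 rows late and was moved up. The correlation of its signals with those of young males was 0.973 after the move and 0.17 before it. All columns of per-sample values were mapped to a sample (0 columns not used).

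MCAO and sham arrays were compared with limma 3.58.1 (lmFit, eBayes) in R 4.3.3, and p-values were adjusted over all named genes by Benjamini-Hochberg. The study's filter on the 75th percentile of the SD and its threshold of 0.25 were run as alternatives. The difference between hemispheres was tested on the IP minus CL value of each mouse, and that between groups of mice as a contrast of differences. The number of arrays, 8 and 4, limits the precision. Genes named were the 12 largest rises, up to 5 called and 3 uncalled members of each list, and a set of marker genes. The members and lists were chosen with earlier results of these data known. The main fit was tested on simulated data. It recovered 77% of changes of log2 size 1 and 98% of those of size 2, and 7.89% of its calls were false. The simulated noise was normal, independent and equal in both groups, which these arrays need not follow. Motifs were searched with Python 3.11.15, pandas 2.3.3 and numpy 2.4.6, and plots drawn with matplotlib 3.10.9. Scan dates and batches were not given in the sources used here.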

Additional observations from a re-analysis of the deposited data

Results flagged for a closer look

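Each result below has 1 mouse whose gap to its nearest neighbor was over the limit of Dixon's ratio (0.526 for 8 arrays, 0.829 for 4). Chance gives about 1 such group in 20, and 14 of 218 groups were over the limit. Among MCAO IP mice, Npas4 was low in mouse 8 (9.76, nearest 11.05), S100a9 low in mouse 8 (4.54, nearest 5.75), Tiparp low in mouse 5 (7.53, nearest 8.58) and Per1 low in mouse 5 (9.69, nearest 9.98). Ccl2 was high in MCAO mouse 2 (7.58, nearest 6.88), S100a8 high in mouse 4 (6.40, nearest 5.19) and Il10 high in mouse 7 (4.65, nearest 4.04). Without MCAO mouse 8, S100a9 differed by 1.53 with an adjusted p of 0.02 in limma, and without mouse 5, Per1 by 0.59 with an adjusted p of 0.0138.

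Among sham IP mice, Fos was low in mouse 1 (6.90, nearest 7.63), as were Stmn2 (11.49, nearest 11.59) and the mean of the choroid plexus markers (5.5, nearest 8.46). Fosb was high in sham mouse 4 (7.60, nearest 7.29), and so was Egr1 (11.29, nearest 10.82). In sham mouse 2, Nfkbiz was high (6.81, nearest 6.65) and Acot10 low (4.74, nearest 5.16).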

How the results depend on the processing

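The count of 53 genes called in the IP hemisphere became 105 with the study's filter and threshold of 0.25 (86 higher, 19 lower), 741 at 0.25 over all genes (345 higher, 396 lower), 96 with the genes at or above the median signal (68 and 28), 94 with a trended and robust variance (80 and 14), 99 with array weights (86 and 13), and 125 with the 24 arrays and the mouse as a random block (84 and 41). Without the 3 MCAO arrays of smallest spread, an alternative chosen after seeing the data like the choroid plexus covariate, it was 24. Genes called lower therefore appeared in several alternatives, and the cause was not tested. It was 56 with the study's filter alone, 63 after quantile normalization, 73 after centring on the median, 53 with the mean of probe sets and 52 with the choroid plexus covariate. Leaving out 1 mouse gave 12 to 69 genes, 12 without sham mouse 3 and 69 without MCAO mouse 5. In the CL hemisphere 4 genes were called at 0.25, and 0 to 1 when 1 mouse was left out (1 without MCAO mouse 1 and 1 without sham mouse 2). The difference between hemispheres gave 1 gene with the genes at or above the median signal, and 0 to 1 when 1 mouse was left out (1 without MCAO mouse 1). The comparison with young males gave 21 at 0.25 and otherwise 0, also with all 12 young males and with any 1 diabetic mouse left out, and that with old mice gave 0 under every alternative run. In young males alone, 40 genes were called, and 1 with all 12 males, a count added after seeing the data. Of the named genes, the sign turned in Lepr alone (-0.0695 without sham mouse 1, and between that and 0.47 when 1 mouse was left out).

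With the mouse number as a replicate block, 15 genes were called, 14 of them among the 53. The numbers are labels of different mice, and deviations of same-numbered MCAO and sham arrays correlated at -0.07, 0.003, 0.038 and 0.027, so they pair nothing. Only 4 sham mice were measured, and low-signal genes such as Il1b lie where arrays resolve little.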
